A study of Mus musculus with 6 samples.

Results

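The 10 genes described here encode 3 Wnt ligands (Wnt2, Wnt5a and Wnt11) and 7 secreted antagonists of Wnt signalling (Sfrp1, Sfrp2, Sfrp4, Frzb, Dkk2, Dkk3 and Wif1). They were taken by symbol from a table of 55335 gene rows, and each symbol matched 1 row. RNA was sequenced from whole aorta of wild-type c57b6l mice, 3 at 6 weeks of age (young) and 3 at 6 months (aged), with 1 library per mouse, no treatment and no allele other than WT in either group. The study's methods describe the mice as male, and the comparison asks how transcript levels in the vessel wall differ between these ages. Both ages are those of adult or nearly adult mice. In RNA from whole tissue, fewer cells of a type and less RNA per cell cannot be told apart.

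Wnt proteins are lipid-modified ligands that act over short distances through Frizzled receptors. In the canonical branch, Frizzled and the co-receptors LRP5 and LRP6 stabilize beta-catenin, which then acts with TCF and LEF factors on target genes. In the non-canonical branches, ligands such as WNT5A and WNT11 act on cell polarity, movement and calcium without beta-catenin. The secreted frizzled-related proteins (SFRP1, SFRP2, SFRP4 and FRZB) and WIF1 bind Wnt ligands outside the cell, DKK2 binds LRP5 and LRP6, and DKK3 is a divergent family member whose part in Wnt signalling is less clear.

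Libraries held between 31049632 and 45832185 counts on genes, and 16612 genes, all 10 of these among them, passed the filter on low counts. Levels are given as CPM, counts per 1000000 counts after TMM scaling between libraries. Smooth muscle markers led the cell type lists in every library, with a summed level between 26005 and 37178 CPM over Myh11, Acta2, Tagln, Cnn1 and Myocd. Of these 5 markers 2 were lower in aged aorta at an unadjusted p under 0.05 (beside 4.82% of all genes tested) and none was higher (beside 5.56%). Young replicate 1 held Xist, the RNA of the inactive X chromosome, at 305.6 CPM against 0.204 to 0.636 in the other libraries, which goes against its description as male. Aged replicate 2 held 1867 CPM of the brown adipocyte markers Ucp1, Cidea, Cox8b and Elovl3 against 71.7 to 561 elsewhere. Results are therefore also given without these libraries, a choice made after the data were seen.

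Across all genes, the quasi-likelihood test of edgeR, adjusted by Benjamini-Hochberg, called 0 of 16612 (0%), with a lowest adjusted p of 0.189, whereas 1723 (10.4%) had an unadjusted p under 0.05, 923 (5.56%) on the higher side in aged aorta and 800 (4.82%) on the lower side. None of the 10 Wnt genes was therefore called. By DESeq2 338 genes (2.03%) were called and again none of the 10. At an unadjusted p under 0.05 were 4 of the 10, Wnt2, Wnt11, Sfrp2 and Sfrp4, all of them higher in aged aorta. Fitted levels were higher in aged aorta for 9 of the 10 (beside 52.1% of all genes tested) and lower for Frzb alone. The median log2 fold change of the 10 was 0.79 against 0.02 over all genes tested. CPM ranges of the age groups did not overlap for Wnt11 and Sfrp2, the aged range lying above in both, while 2744 of all genes tested (16.5%) had ranges that did not overlap, 1286 (7.74%) with the aged range above and 1458 (8.78%) with it below. The genes were chosen with earlier results of these data known, so the counts describe them only.

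**Figure D1:**
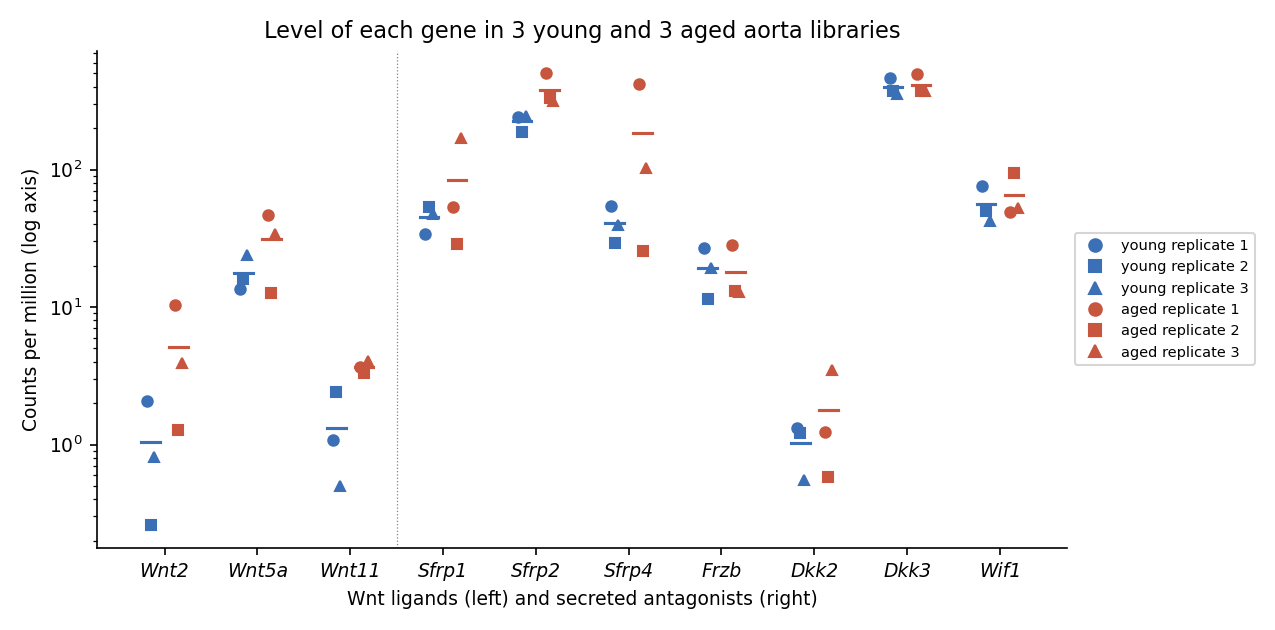
CPM on a log axis of the 3 ligands (left of the dotted line) and 7 antagonists in each of the 6 libraries, with circles, squares and triangles for replicates 1, 2 and 3, blue for young and red for aged, and a short line at each group mean. Only for Wnt11 and Sfrp2 do all red points lie above all blue points, and the aged points of Sfrp4 run from 25.5 to 421 CPM while those of Dkk3 run from 370 to 496.

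The upstream sequences of Wnt11 and Sfrp2 are shown because these were the genes whose groups did not overlap. Each is the run of 250 bases that ends at the base before the RefSeq start on GRCm38.p6, which for both genes is also the GENCODE M21 start, at chr7:98834862-98835111 for Wnt11 and chr3:83766071-83766320 for Sfrp2, both on the plus strand and written 5′ to 3′. Capitals mark matches to TCAAAG, a core of TCF/LEF sites, and to TATAAA, the TATA box.
Wnt11: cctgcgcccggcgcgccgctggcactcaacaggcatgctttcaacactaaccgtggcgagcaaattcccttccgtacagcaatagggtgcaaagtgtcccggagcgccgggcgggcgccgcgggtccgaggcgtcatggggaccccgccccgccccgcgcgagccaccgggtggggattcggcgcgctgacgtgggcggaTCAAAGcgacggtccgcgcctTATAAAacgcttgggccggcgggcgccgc
Sfrp2: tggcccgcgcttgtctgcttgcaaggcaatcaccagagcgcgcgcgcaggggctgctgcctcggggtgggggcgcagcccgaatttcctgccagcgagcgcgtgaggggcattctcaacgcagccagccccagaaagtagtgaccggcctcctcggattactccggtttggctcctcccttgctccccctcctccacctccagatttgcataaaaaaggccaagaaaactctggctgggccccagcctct
In Wnt11 the TCAAAG match lay at bases -50 to -45 from the start and the TATAAA match at -29 to -24, while neither was found on either strand in Sfrp2. Of 32851 such windows 13.8% held TCAAAG and 12.4% held TATAAA on at least 1 strand, and the searched motifs do not overlap each other here. GC content was 70.8% upstream of Wnt11 and 63.6% upstream of Sfrp2. RefSeq windows were found for 6 of the 10 genes. Among the others, Frzb held TCAAAG at -95 to -90, Dkk2 held TATAAA at -32 to -27, Wif1 held TATAAA on the other strand at -232 to -227, and Wnt2 held neither. The windows of Frzb, Wif1 and Wnt2 count from RefSeq starts that differ from the GENCODE ones and run over the latter, so they are not printed. A second Wnt11 window, before an internal start, held neither motif. These matches are descriptions of letters and were not measured as sites.

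Among the ligands, all 3 were fitted higher in aged aorta, and Wnt11 was the one whose groups did not overlap. Wnt11, a ligand known for convergent movements of cells and for heart development, lies on chromosome 7 of GRCm38 from 98835112 to 98855195 on the plus strand. It was at 1.07, 2.41 and 0.495 CPM in young replicates 1 to 3 and at 3.67, 3.29 and 4.07 CPM in aged replicates 1 to 3. The aged libraries lay close together while the young ones differed among themselves (1.33 ± 0.984 against 3.68 ± 0.392 CPM, mean ± SD, n = 3 each). The log2 fold change was 1.47 with a standard error of 0.56 (edgeR, unadjusted p = 0.0325, adjusted p = 0.446). These levels rest on 52, 84 and 17 counts in young and 122, 124 and 115 counts in aged libraries. An exact two-sided permutation test of log2(CPM + 1) gave p = 0.1, the smallest that 3 libraries against 3 allow. Leaving out 1 library at a time kept the log2 fold change between 1.09 and 2.22, with an unadjusted p of 0.0905 without young replicate 1 and 0.0475 without aged replicate 2.

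Wnt2, a ligand of the canonical branch known from lung development, lies on chromosome 6 from 17988940 to 18030585 on the minus strand. It was at 2.06, 0.259 and 0.816 CPM in the young libraries and at 10.3, 1.27 and 3.89 CPM in the aged ones, from 100, 9 and 28 counts and from 342, 48 and 110 counts. Aged replicates 1 and 3 lay above every young library, whereas aged replicate 2 lay below young replicate 1, so that the groups overlapped. Its log2 fold change of 2.28, standard error 0.92 (edgeR, unadjusted p = 0.0415, adjusted p = 0.463), was the largest of the 10 genes with all 6 libraries in the fit. Without aged replicate 1, aged replicate 3, young replicate 2 or young replicate 3, and by limma on log2(FPKM + 1), that of Sfrp4 or Wnt11 was larger. The exact permutation p was 0.2. Without aged replicate 1 the log2 fold change was 1.28 (unadjusted p = 0.202), and without young replicate 1 it was 3.26 (unadjusted p = 0.0195).

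Wnt5a, the best known non-canonical ligand, lies on chromosome 14 from 28504750 to 28527448 on the plus strand. It was at 13.6, 15.9 and 23.8 CPM in young and at 46.7, 12.7 and 34.0 CPM in aged libraries, so that aged replicate 2 was the lowest of all 6 and the other two aged libraries the highest. The log2 fold change was 0.81 with a standard error of 0.46 (edgeR, adjusted p = 0.571), and the exact permutation p was 0.4. Without aged replicate 2 it was 1.19 (unadjusted p = 0.00444), and without aged replicate 1 it was 0.40 (unadjusted p = 0.414).

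The frizzled-related proteins held the antagonist with the steadiest difference, Sfrp2, and the one with the widest aged spread, Sfrp4. Sfrp2, a frizzled-related protein of fibroblasts that binds Wnt ligands, lies on chromosome 3 from 83766321 to 83774316 on the plus strand. It was at 243, 189 and 245 CPM in young and at 501, 330 and 315 CPM in aged libraries, each aged library above each young one (225 ± 31.9 against 382 ± 103 CPM, mean ± SD, n = 3 each). The log2 fold change was 0.76 with a standard error of 0.23, which is a fitted 1.69-fold higher level (edgeR, unadjusted p = 0.0122, adjusted p = 0.390). The exact two-sided permutation test gave p = 0.1. Sfrp2 was the only one of the 10 with an unadjusted p under 0.05 whichever single library was left out, with a log2 fold change between 0.52 and 0.88. On log2 FPKM by limma, which changes both the unit and the scaling, its unadjusted p was 0.0632 with a pseudocount of 1 and 0.0619 with 0.1, while that of Wnt11 was 0.0179 and 0.0274.

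Sfrp4, a frizzled-related protein that is also known for bone and phosphate handling, lies on chromosome 13 from 19623104 to 19632994 on the plus strand. It was at 54.1, 29.1 and 39.2 CPM in young and at 421, 25.5 and 102 CPM in aged libraries. Aged replicate 1 was 7.79-fold above the highest young library, aged replicate 3 was 1.89-fold above it, and aged replicate 2 was the lowest of all 6. Its log2 fold change was 2.17 with a standard error of 0.88 (edgeR, unadjusted p = 0.0420, adjusted p = 0.465), and the exact permutation p was 0.4. Without aged replicate 1 the log2 fold change was 0.65 (unadjusted p = 0.298), and without aged replicate 2 it was 2.68 (unadjusted p = 0.00238).

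Sfrp1, on chromosome 8 from 23411502 to 23449632 on the plus strand, was at 34.2, 53.5 and 47.3 CPM in young and at 53.8, 28.5 and 171 CPM in aged libraries. Aged replicate 3 was 3.20-fold above the highest young library, aged replicate 1 was level with that library, and aged replicate 2 was the lowest of all 6. The log2 fold change of 0.91, standard error 0.60 (edgeR, adjusted p = 0.622), became -0.13 without aged replicate 3. The exact permutation p was 0.7. Frzb, also known as Sfrp3 and first described in cartilage, lies on chromosome 2 from 80411970 to 80447625 on the minus strand. It was at 26.9, 11.4 and 19.3 CPM in young and at 28.4, 13.0 and 12.8 CPM in aged libraries, with overlapping groups and a log2 fold change of -0.09, standard error 0.42 (edgeR, adjusted p = 0.953).

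The Dickkopf genes and Wif1 had fitted changes of less than 2 standard errors. Dkk3, which codes for a secreted glycoprotein, lies on chromosome 7 from 112116017 to 112159057 on the minus strand and was at 466, 375 and 357 CPM in young and 496, 371 and 370 CPM in aged libraries. It was the steadiest of the 10, with a highest library 1.39-fold above the lowest and a log2 fold change of 0.05, standard error 0.19 (edgeR, adjusted p = 0.944). Dkk2, on chromosome 3 from 132085292 to 132180304 on the plus strand, was at 1.32, 1.21 and 0.554 CPM in young and 1.23, 0.583 and 3.50 CPM in aged libraries. Its log2 fold change of 0.78, standard error 0.71 (edgeR, adjusted p = 0.713), became -0.18 without aged replicate 3, the highest library. Wif1, whose protein binds Wnt ligands through a domain of its own, lies on chromosome 10 from 121033960 to 121100650 on the plus strand. It was at 76.1, 49.7 and 42.6 CPM in young and 49.4, 94.8 and 52.3 CPM in aged libraries, highest in aged replicate 2. The log2 fold change of 0.22, standard error 0.32 (edgeR, adjusted p = 0.824), became -0.14 without that library. Exact permutation p values were 1.0 for Frzb, 0.7 for Dkk3 and 0.6 for both Dkk2 and Wif1.

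**Figure D2:**
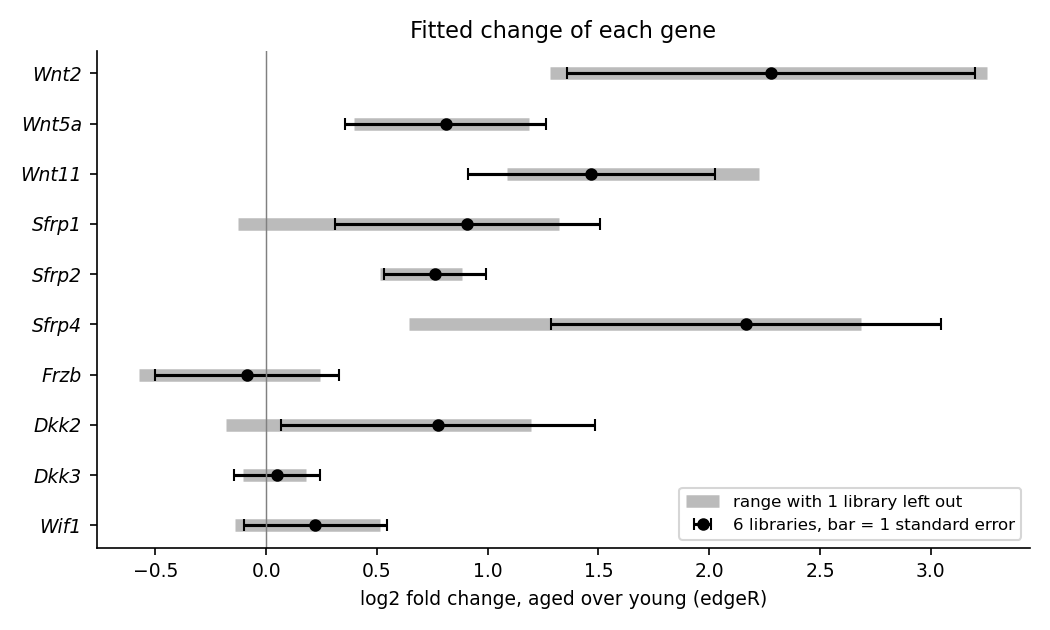
Fitted log2 fold change of aged over young aorta for each of the 10 genes (black points, bars of 1 standard error, edgeR on 6 libraries), with the range over the 6 fits that leave out 1 library as a grey band. The band of Sfrp2 runs from 0.52 to 0.88 and that of Sfrp4 from 0.65 to 2.68, while the bands of Sfrp1, Frzb, Dkk2, Dkk3 and Wif1 cross 0.

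The 10 genes did not share 1 order of libraries. Of the 10, 6 were highest in aged replicate 1 (Wnt2, Wnt5a, Sfrp2, Sfrp4, Frzb and Dkk3), 3 in aged replicate 3 (Wnt11, Sfrp1 and Dkk2) and 1 in aged replicate 2 (Wif1). Over the 6 libraries the pairs most alike were Wnt2 with Sfrp4 (Pearson r = 0.95 of log2(CPM + 1)), Wnt2 with Sfrp2 (r = 0.90), Sfrp1 with Dkk2 (r = 0.88) and Wnt5a with Sfrp4 (r = 0.88), and the pair least alike was Wnt5a with Wif1 (r = -0.66). These are descriptions over 6 libraries that differ in depth and in their cell type markers, which all genes of a library have in common.

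Without young replicate 1, 2 of the 10 had an unadjusted p under 0.05 (Wnt2 and Sfrp2) beside 11.3% of 17259 genes tested. Without aged replicate 2 there were 6 (Wnt2, Wnt5a, Wnt11, Sfrp1, Sfrp2 and Sfrp4) beside 13.8% of 17147. Without both there were 4 (Wnt2, Wnt5a, Sfrp2 and Sfrp4) beside 16.5% of 16774 genes tested, with log2 fold changes of 3.72, 1.03, 0.92 and 2.94, while Wnt11 had 1.41 (unadjusted p = 0.115). Without aged replicate 1, in which most of the 10 were highest, there was 1 (Sfrp2) beside 8.35% of 17274 genes tested. Without aged replicate 3 there were 2 (Sfrp2 and Sfrp4) beside 7.13% of 17445. None of the 10 had an adjusted p under 0.05 in any of these fits (edgeR, Benjamini-Hochberg).

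Levels were compared between genes only per length, as the deposited FPKM, the count divided by gene length and by the reads of the library. The antagonists other than Dkk2 stood above the ligands in median level, and Dkk2 stood below them. Sfrp2 had a median of 116 FPKM over the 6 libraries (85.6 to 198) and Dkk3 of 108 (88.9 to 132), and together they made up 71.2% to 82.3% of the summed FPKM of the 10 genes in a library. Wif1 followed at 18.8 FPKM (17.4 to 33.4), then Sfrp4 at 10.8 (5.21 to 85.9), Sfrp1 at 10.6 (5.57 to 31.5) and Frzb at 4.69 (3.19 to 7.89). The ligand Wnt5a stood at 2.51 FPKM (1.38 to 5.07), Wnt2 at 0.671 (0.111 to 3.88), Wnt11 at 0.618 (0.119 to 0.784) and the antagonist Dkk2 last at 0.297 (0.134 to 0.756). Only Dkk3 and Wif1 were neighbours in this order whose ranges over the libraries did not overlap. Read within libraries, Dkk3 was above Wif1 and Wnt5a above Wnt2 in 6 of 6 libraries, while in every other pair of neighbours the order turned in at least 1 library.

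**Figure D3:**
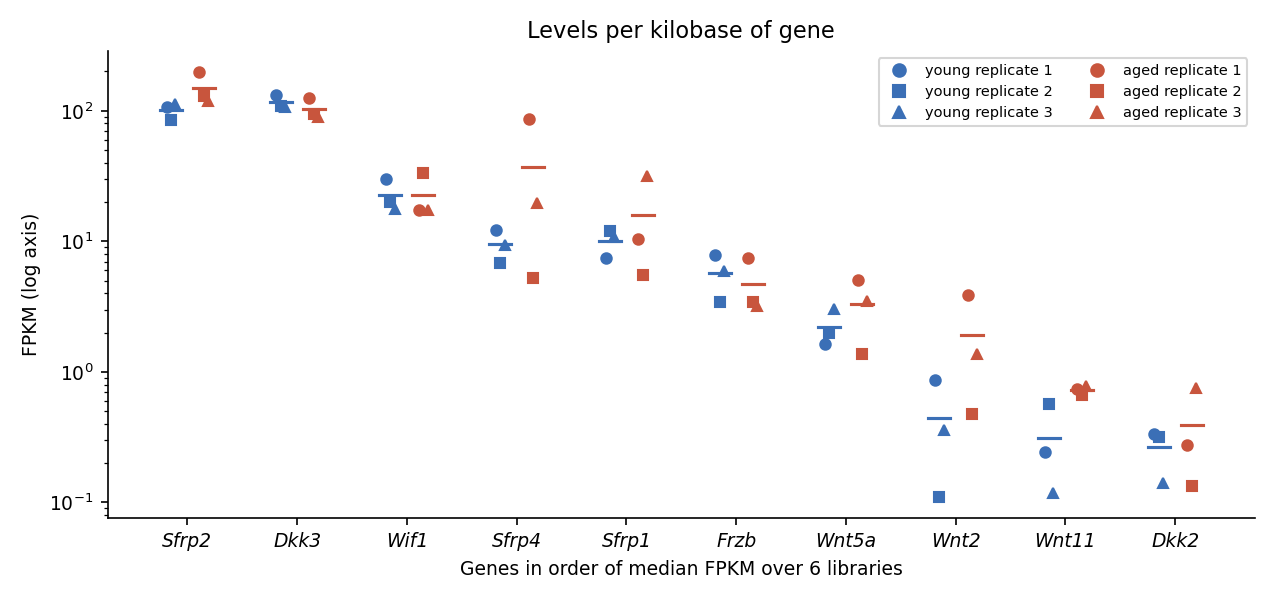
Deposited FPKM on a log axis for the 10 genes in order of their median, with symbols and colours by library (blue young, red aged) and a line at each group mean. Sfrp2 and Dkk3 lie above 85 FPKM in all 6 libraries, and Wnt2, Wnt11 and Dkk2 reach no more than 3.88 FPKM.

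The summed FPKM of the 3 ligands was 2.76, 2.67 and 3.51 in young and 9.69, 2.52 and 5.66 in aged libraries, that of the 7 antagonists 266 ± 29.8 in young and 333 ± 97.9 in aged aorta (SD, n = 3 each). Antagonist FPKM divided by ligand FPKM was 108, 89.1 and 74.9 in young and 46.0, 108 and 49.3 in aged libraries. Aged replicates 1 and 3 lay below every young library and aged replicate 2 was level with young replicate 1, so the groups overlapped. These sums hold the 10 chosen genes only, without Sost, Wnt16, Wnt9a and the other listed pathway genes. In every young library Sost alone (435, 386 and 467 FPKM) was above the 7 antagonists together. Wnt16 alone (5.03, 4.44 and 5.96 FPKM) was above the 3 ligands together there, and so was Wnt9a alone (4.37, 4.48 and 4.198 FPKM). In aged libraries Wnt16 was below the 3 ligands, and Wnt9a was above them only in aged replicate 2 (3.84 FPKM). Among aged libraries Sost was above the 7 antagonists only in aged replicate 2. The ratio therefore describes these 10 genes only. No test was made of a sum over chosen genes. FPKM are not TMM-scaled, and on their log2 scale with 1 added the median change of all genes tested was -0.12, so that Dkk3, which was fitted higher in CPM, had a lower mean FPKM in aged (103 ± 19.9) than in young aorta (116 ± 14.1, SD, n = 3 each).

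Several of these genes were highest in the same library as the markers of a cell type. The 7 fibroblast markers (Pdgfra, Dcn, Lum, Col1a1, Col1a2, Dpt and Pi16) summed to 3669, 4437 and 5682 CPM in young and 9567, 3277 and 6965 CPM in aged libraries. All 7 were highest in aged replicate 1, as were Wnt2, Wnt5a, Sfrp2, Sfrp4, Frzb and Dkk3. The sum was lowest in aged replicate 2, as were Wnt5a and Sfrp4, whereas Sfrp2 was second highest there. Col1a1 and Col1a2 held 774 and 1573 of the 3277 CPM in that library. They were lowest there, as were Lum and Pi16. In contrast, Pdgfra (54.5 CPM) and Dpt (154 CPM) lay above every young library there, and Dcn lay within the young range. Of the 7 markers 4 were higher in aged aorta at an unadjusted p under 0.05 (beside 5.56% of all genes tested) and none was lower (beside 4.82%). As a percentage of the fibroblast sum, a ratio formed after the data were seen, Wnt5a was 0.370, 0.359 and 0.419 in young and 0.488, 0.387 and 0.489 in aged libraries. Sfrp4 was 1.47, 0.655 and 0.690 percent of that sum in young and 4.40, 0.777 and 1.47 percent in aged libraries. Sfrp2 was 6.62, 4.25 and 4.30 percent and 5.24, 10.1 and 4.52 percent, so that on this scale its groups overlapped, as those of Sfrp4, Wnt5a, Wnt2 and Wnt11 did.

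The macrophage markers Adgre1, Csf1r, C1qa, C1qb, Mrc1 and Cd68 summed to 63.2, 50.3 and 48.7 CPM in young libraries. In aged libraries they summed to 214, 72.5 and 156 CPM, with no overlap. All 6 were highest in aged replicate 1. At an unadjusted p under 0.05, 6 of 6 were higher in aged aorta (beside 5.56% of all genes tested). The 5 endothelial markers (Pecam1, Cdh5, Vwf, Tie1 and Kdr) were all highest in aged replicate 3, where Wnt11, Sfrp1 and Dkk2 were highest, with a summed level of 1563 CPM there against 317 to 461 elsewhere. All 4 brown adipocyte markers were highest in aged replicate 2, where Wif1 was highest. White adipocyte (40.2 to 328 CPM), cardiac muscle (54.1 to 251), mesothelium (1.05 to 58.7), Schwann cell (11.8 to 30.2), chondrocyte (20.9 to 31.4), skeletal muscle (2.73 to 19.0) and lymphocyte (0.542 to 4.94) sums overlapped between the ages. The fibroblast, endothelial and brown adipocyte sums overlapped too. Mesothelium was also highest in aged replicate 3 (58.7 CPM, against 56.0 in young replicate 2). White adipocyte and Schwann cell sums were also highest in aged replicate 2. Cardiac and skeletal muscle sums were highest in young replicate 1, cardiac muscle at 251 CPM there against 54.1 to 62.5 elsewhere. Of all these markers Matn1 of cartilage alone was at 0 in every library. The part of any of these cells in the levels of the Wnt genes was not tested.

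**Figure D4:**
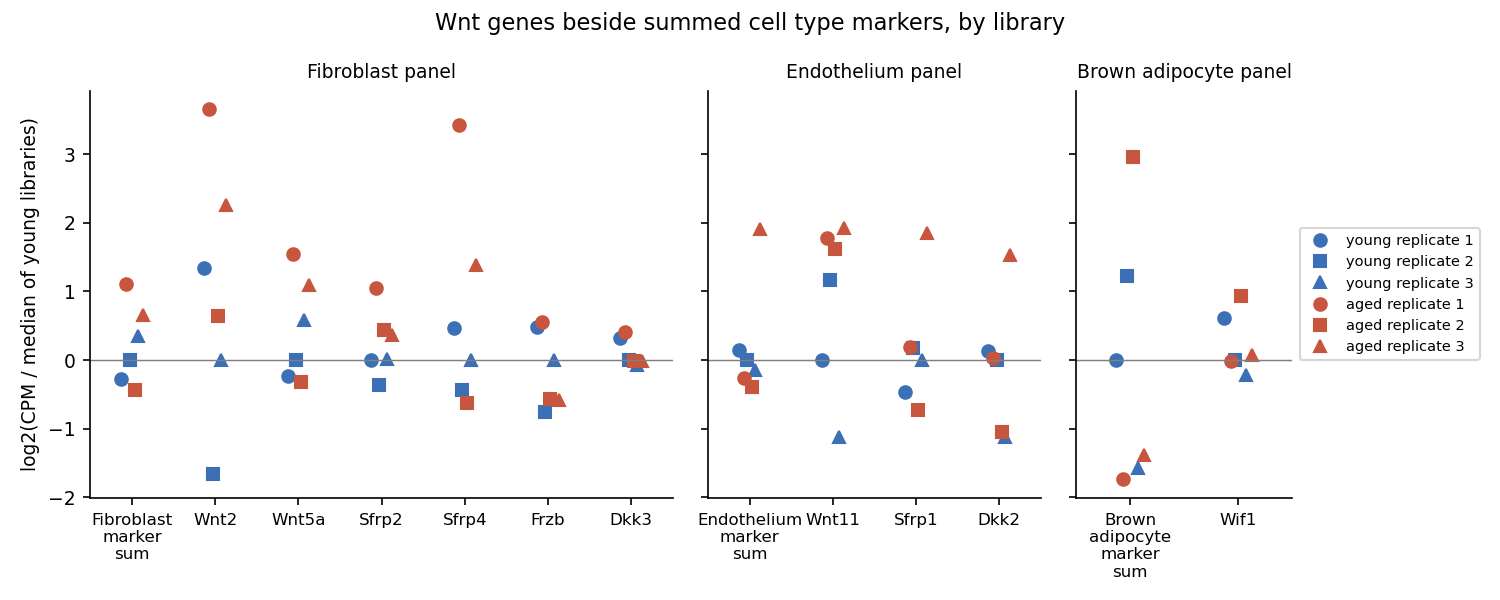
Log2 of CPM over the median of the young libraries, for summed fibroblast, endothelial and brown adipocyte markers, each beside all of the 10 Wnt genes that were highest in the same library (symbols by replicate, blue young, red aged). The genes of each panel were picked by that library, so its top place for them follows from the choice. It is aged replicate 1 (red circle) in the first panel, aged replicate 3 (red triangle) in the second and aged replicate 2 (red square) in the last. The whole order of the 6 libraries is that of the markers beside it for Wnt5a alone.

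The other 90 listed genes of the pathway showed more fitted decreases than increases. Of these, 71 were tested and 0 were called after adjustment by edgeR. At an unadjusted p under 0.05, 3 were higher in aged aorta (4.23%, beside 5.56% of all genes tested) and 7 were lower (9.86%, beside 4.82%). Fitted levels were higher for 29 (40.8%, beside 52.1% of all genes) and lower for 42, with a median log2 fold change of -0.15. Ranges did not overlap for 1 gene with aged above (1.41%, beside 7.74%) and for 12 with aged below (16.9%, beside 8.78%). These are descriptions of lists, with no test.

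Among the other 16 ligands 7 were tested, 6 had no count in any library, and Wnt16 alone had an unadjusted p under 0.05 (beside 10.4% of all genes tested). Wnt16, a ligand known from bone and skin, was at 23.1, 19.8 and 26.1 CPM in young and 9.63, 11.3 and 10.9 CPM in aged libraries, so that every aged library lay below every young one. Its log2 fold change was -1.12 with a standard error of 0.18 (edgeR, unadjusted p = 3.78e-04, adjusted p = 0.285), between -1.21 and -1.01 with single libraries left out. Per length Wnt16 stood at 5.03, 4.44 and 5.96 FPKM in young libraries, where Wnt5a stood at 1.64, 1.99 and 3.03. In aged libraries Wnt16 stood between 1.87 and 2.20 FPKM and Wnt5a at 5.07, 1.38 and 3.49. Wnt5a was therefore above Wnt16 in aged replicates 1 and 3. Wnt9a was above Wnt5a in every young library and in aged replicates 2 and 3 (3.84 and 4.34 FPKM). It was below Wnt5a in aged replicate 1.

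Of the other 7 antagonists 5 were tested and none had an unadjusted p under 0.05. Sost, which codes for sclerostin, an LRP5 and LRP6 binder best known from bone, was at 435, 386 and 467 FPKM in young and 268, 371 and 228 FPKM in aged libraries, in each library above every one of the 10 genes. In CPM its log2 fold change was -0.36 with a standard error of 0.21 (edgeR, adjusted p = 0.580). Sfrp5, the remaining frizzled-related gene, reached at most 1.42 CPM. Of the 4 R-spondins, secreted enhancers of Wnt signalling, 2 were tested and neither had an unadjusted p under 0.05, with Rspo3 at 3.95 ± 1.02 CPM in young and 5.69 ± 2.16 in aged aorta and Rspo1 at 2.51 ± 2.54 and 4.81 ± 4.39 (SD, n = 3 each). Wls, the carrier that brings Wnt ligands to the surface, was at 105 ± 11.0 CPM in young and 104 ± 11.1 in aged aorta (SD, n = 3 each), and Porcn, which attaches their lipid, at 8.38 ± 1.24 and 9.50 ± 0.342. Both genes of maturation and release were tested, with neither at an unadjusted p under 0.05.

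Of 23 receptors and co-receptors 19 were tested. At an unadjusted p under 0.05, 3 Frizzled genes were lower in aged aorta (beside 4.82% of all genes tested) and none was higher (beside 5.56%). Fzd5 was at 20.6, 15.7 and 20.5 CPM in young and 10.1, 12.5 and 10.3 CPM in aged libraries, without overlap, at a log2 fold change of -0.79, standard error 0.20 (edgeR, unadjusted p = 0.00459, adjusted p = 0.377). Fzd7 was at 108, 73.3 and 90.3 CPM in young and 70.4, 57.2 and 64.0 CPM in aged libraries, also without overlap (log2 fold change -0.51, adjusted p = 0.439 by edgeR). Fzd8 differed by -0.75 on the log2 scale (adjusted p = 0.451 by edgeR), with groups that overlapped. Ranges of this list did not overlap for 3 with aged below (beside 8.78% of all genes tested) and for 0 with aged above (beside 7.74%). Besides Fzd5 and Fzd7 this was Lgr6, at 450, 365 and 391 CPM in young and 311, 361 and 279 CPM in aged libraries (log2 fold change -0.34, adjusted p = 0.533 by edgeR). Of 18 genes of the intracellular relay 17 were tested. At an unadjusted p under 0.05, 3 were lower (beside 4.82% of all genes tested) and none was higher (beside 5.56%). The lower ones were Dvl2, which relays the signal from Frizzled (log2 fold change -0.40, adjusted p = 0.459 by edgeR), and the beta-catenin partners Bcl9 (-0.62, adjusted p = 0.386) and Bcl9l (-0.76, adjusted p = 0.404).

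Of the 10 feedback and target genes 9 were tested and Sp5 had no count. At an unadjusted p under 0.05, 2 were higher (beside 5.56% of all genes tested) and 0 were lower (beside 4.82%). Ranges did not overlap for 1 with aged above, Ccnd1 (beside 7.74%), and for 2 with aged below, Nkd1 and Tnfrsf19 (beside 8.78%). Nkd1 was at 98.5, 74.2 and 75.6 CPM in young and 72.6, 70.4 and 64.1 CPM in aged libraries (log2 fold change -0.26, adjusted p = 0.610 by edgeR). Ccnd1, which codes for cyclin D1 and answers to many pathways besides Wnt, was at 8.61, 11.0 and 11.0 CPM in young and 49.3, 23.8 and 45.2 CPM in aged libraries, a log2 fold change of 1.95 with a standard error of 0.29 (edgeR, unadjusted p = 2.51e-04, adjusted p = 0.259). Nkd2, a feedback inhibitor at Dishevelled, was at 6.44, 4.48 and 5.07 CPM in young and 11.1, 5.96 and 10.9 CPM in aged libraries, with overlap (log2 fold change 0.80, adjusted p = 0.446 by edgeR). Axin2, the feedback gene most often read for canonical signalling, is named after its values were seen and was at 4.19, 5.49 and 4.11 CPM in young and 3.52, 7.39 and 5.84 CPM in aged libraries (log2 fold change 0.28, adjusted p = 0.776 by edgeR). All 10 planar polarity and non-canonical genes were tested. At an unadjusted p under 0.05, 1 was higher (beside 5.56% of all genes tested) and 0 were lower (beside 4.82%). The higher one was Rhou, a small GTPase induced by Wnt ligands (log2 fold change 1.12, adjusted p = 0.472 by edgeR), with groups that overlapped. Fitted levels were higher for 3 of the list (beside 52.1% of all genes tested) and lower for 7. Ranges did not overlap for 3 with aged below, Vangl2, Celsr3 and Daam2 (beside 8.78%), and for 0 with aged above (beside 7.74%).

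**Figure D5:**
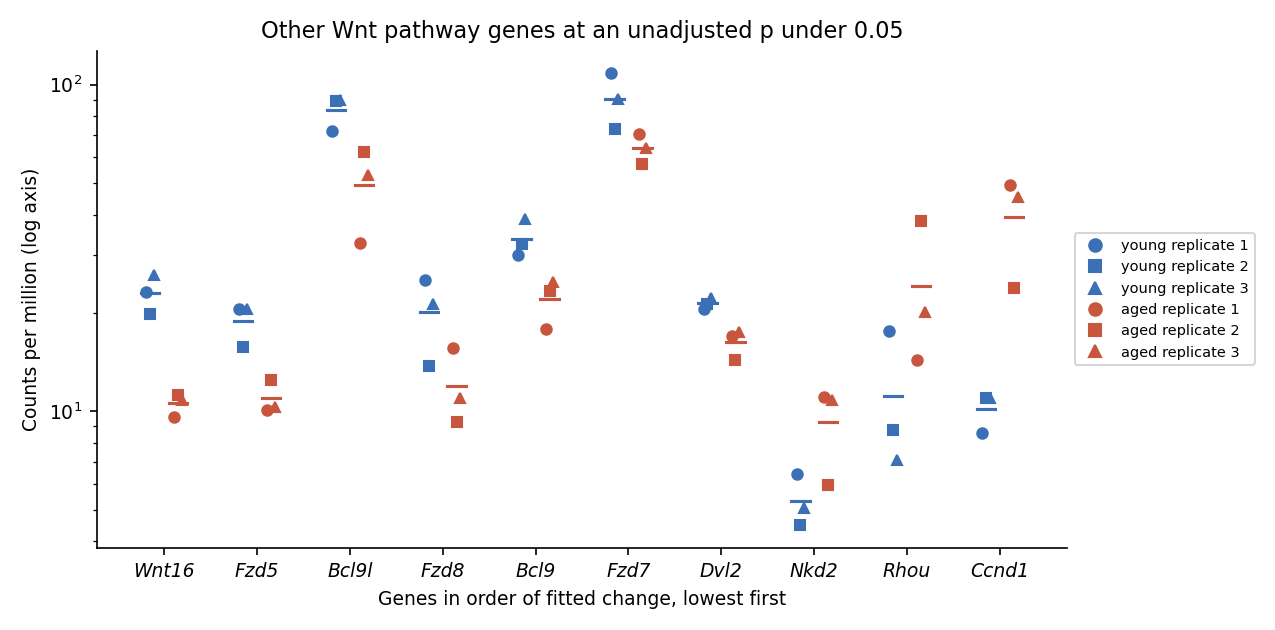
CPM on a log axis of the 10 other Wnt pathway genes at an unadjusted p under 0.05, in order of fitted change, with symbols and colours by library (blue young, red aged) and a line at each group mean. Red points of Wnt16, Fzd5, Fzd7, Dvl2, Bcl9 and Bcl9l all lie below the blue ones and those of Ccnd1 all above, and none of the 10 passed adjustment over all genes.

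Outside the pathway lists, the gene most like each of the 10 over the 6 libraries was read as a description. Wnt2 was most like Rps2 (r = 0.998), Wnt5a like Ccbe1 (r = 0.993), Wnt11 like Mid1ip1 (r = 0.991), Sfrp1 like Itpr3 (r = 0.994), Sfrp2 like Hnrnpab (r = 0.997) and Sfrp4 like Prelid1 (r = 0.999). Frzb was most like Plrg1 (r = 0.997), Dkk2 like Grin3a (r = 0.988), Dkk3 like a gene without a symbol (ENSMUSG00000117416, r = 0.995) and Wif1 like B230217O12Rik (r = 0.991). For each of the 10, between 32 and 192 genes had an r over 0.95, so with 6 libraries a high r singles out no partner.

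Genes on the opposite strand share exon bases with Wnt5a (Gm2670, 60 counts over all libraries), Wnt11 (Gm8398, 0 counts) and Sfrp2 (Gm26771, 50 counts). Whether counting used strand is not given in the sources used here, so reads of these pairs may not be told apart. The labels name no batch.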

How the data were processed

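Aorta RNA of 3 young and 3 aged mice was analysed from 2 deposited tables. The authors deposited counts, whole numbers of reads per gene without normalization, and FPKM, scaled by the authors for gene length and library reads. The labels name the build mm10; aligner, counting tool and annotation are not given in the sources used here. Of 55335 gene identifiers 55154 were found in GENCODE M21 (GRCm38), which gave the coordinates. Upstream sequences are RefSeq's on GRCm38.p6.

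Counts were filtered (filterByExpr by group, minimum count 10, minimum total 15), scaled by TMM and fitted by edgeR 4.0.16 quasi-likelihood models in R 4.3.3 without covariates, a pipeline tested on simulated data. There it called 111 of 194 genes (57.2%) set to a log2 fold change of 2 in either direction, with 5 false calls. It made 0 false calls where no change was set. Many changes of that size would therefore stay uncalled. Benjamini-Hochberg adjustment covered the 16612 tested genes, and calls needed an adjusted p under 0.05. CPM used TMM-scaled library sizes. Standard errors were the log2 fold change divided by the square root of F. Exact permutation tests were two-sided on log2(CPM + 1), 3 libraries against 3 (scipy 1.17.1), and cannot go below 0.1. Totals of 31049632 to 45832185 counts set the precision, which is low for genes under about 1 CPM.

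Alternatives were RLE factors, no filter, at least 10 counts in every library, a replicate block, each library left out, DESeq2 1.42.0, limma 3.58.1 on log2 FPKM (pseudocounts 1 and 0.1) and robust fitting; leaving out young replicate 1 and aged replicate 2 together, and ratios to fibroblast markers, were added after the data were seen. Named were the 10 genes, every gene of the other Wnt lists at an unadjusted p under 0.05 or otherwise the 2 with the highest mean CPM, the gene most like each of the 10, and cell type markers where they bear on a member. Wnt9a, Lgr6, Axin2, Nkd1, Tnfrsf19, Vangl2, Celsr3, Daam2 and Gsk3b were named besides, after their values were seen. The members and lists were chosen with earlier results of these data known, and lists were written from general knowledge.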

Additional observations from a re-analysis of the deposited data

How the results depend on the processing

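All 10 genes stayed uncalled after adjustment under every alternative run, with a lowest adjusted p of 0.0844 (Sfrp2, DESeq2). Of 149 log2 fold changes of the 10 under alternatives 136 kept their direction, and 1 could not be had, since Wnt2 fails a filter of 10 counts in every library. Over all genes DESeq2 called 338, and leaving out 1 library called 0 to 110, the 110 without aged replicate 2. The 4 of 10 at an unadjusted p under 0.05 became 1 with limma on log2(FPKM + 1) and 1 with limma on log2(FPKM + 0.1), both times Wnt11, beside 16.1% and 16.0% of all genes tested, and 1 to 6 with 1 library left out, beside 6.13% to 13.8%. The sign turned on leaving out 1 library for Sfrp1 (range -0.13 to 1.32), Frzb (-0.57 to 0.24), Dkk2 (-0.18 to 1.20), Dkk3 (-0.11 to 0.18) and Wif1 (-0.14 to 0.52). Frzb was 0.43 without young replicate 1 and aged replicate 2 together. With limma and pseudocounts of 1 and 0.1, Dkk3 was -0.17 and -0.18, and Wif1 -0.017 and -0.019. In these limma fits the median of all genes moved from 0.02 to -0.12 and -0.19, and the share of genes fitted higher from 52.1% to 31.5% and 31.2%. Of the 10 ranks per length, 6 to 10 were kept with 1 library left out. The cause of these differences was not tested.

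With the replicate number as a replicate block 0 genes were called, and 3 of the 10 had an unadjusted p under 0.05 (Wnt2 2.28, Wnt11 1.71 and Sfrp2 0.74), beside 10.7% of all genes, while Sfrp4 had 1.39. The standard error of Wnt2 went from 0.92 to 0.29 under the block and its adjusted p from 0.463 to 0.338 (edgeR). Deviations of same-numbered libraries from their group means correlated at 0.079, 0.117 and 0.096. Libraries of different numbers were not correlated for comparison, so these values cannot decide whether the numbers mark pairs. The labels give only a repeat number, and the main fit took no pairs. With 3 mice a group, none of the 10 changes was set apart from 0 after adjustment. Those of Wnt5a, Sfrp1, Frzb, Dkk2, Dkk3 and Wif1 had unadjusted p values of 0.117 or more (edgeR, 6 libraries). Wnt2, Wnt11 and Dkk2 rest on few counts.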

Other observations

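Gsk3b, a kinase of the beta-catenin destruction complex, was singled out after its values were seen. It was at 5.68, 52.0 and 60.2 CPM in young replicates 1, 2 and 3 and at 5.60, 58.8 and 58.4 CPM in aged replicates 1, 2 and 3, so that replicate 1 of each age held far less than the other libraries. The counts behind these levels were 275, 1809 and 2065 in young and 186, 2217 and 1649 in aged libraries.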
